A study of Arabidopsis thaliana with 42 samples.

Results

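The genes described here keep copper in balance in the plant cell. The set was defined as 10 Arabidopsis thaliana loci: the copper transporters COPT1 and COPT2, the metal transporter ZIP2, the copper chaperones CCH and CCS, the superoxide dismutases CSD1, CSD2 and FSD1, and the reductases FRO4 and FRO5. A member was a probe set (the group of array probes that reports a transcript) whose locus entry names 1 of these loci. This found 8 members, 1 for each of 8 loci, among the 22810 probe sets of the Affymetrix ATH1 array. FRO4 and FRO5 were not analysed here. The loci were chosen by the log2 values of COPT2 over time on day 1, where it was low at some times, together with the known roles of the other genes. Changes with time on that day, and differences of COPT2 that rest on its day 1 arrays, are therefore given as descriptions, with no test.

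Copper is a cofactor of plastocyanin, of cytochrome oxidase and of the copper/zinc superoxide dismutases CSD1 of the cytosol and CSD2 of the plastid. In Arabidopsis short of copper, the transcription factor SPL7 activates uptake genes such as COPT2, the iron superoxide dismutase gene FSD1, and microRNAs. Among these, miR398 targets the transcripts of CSD1, CSD2 and CCS, the chaperone that loads copper onto both enzymes. In plants with ample copper the reverse holds: uptake genes and FSD1 are low, and CSD1, CSD2 and CCS are high.

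RNA of whole 7-day-old seedlings in liquid culture was measured on 42 arrays in 14 groups of 3, each sample being a separate flask with its own pool of seedlings. Wild type (Columbia), 35S::GR-REV and 35S::KAN1-GR were treated with 50 µM dexamethasone (DEX), a steroid that moves a glucocorticoid receptor (GR) fusion into the nucleus. Day 1 holds wild-type replicates 1 to 3 and GR-REV at 0, 30, 60 and 120 min, and day 2 holds wild-type replicates 4 to 6 and KAN1-GR at 0, 30 and 60 min. REVOLUTA (REV) and KANADI1 (KAN1) are transcription factors of leaf polarity, and both transgenes are in the Columbia background under the 35S promoter, which is active in most tissues. The 0 min samples, frozen just before DEX was given, are the only ones without it, and no group received the solvent alone. How many independent transgenic lines stand behind each construct is not given in the sources used here. Each construct was grown on 1 day, so the 2 transgenic lines can be compared only through the wild type of their own day.

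All values are log2 values (1 unit is a 2-fold difference) as deposited, in which each probe set has a median of 0 over the 6 arrays of untreated wild type. A value of 0 is therefore the middle of untreated wild type over both days, and levels cannot be compared between genes. Where the days differ, 0 lies between them. Untreated wild type of CSD2, for example, lay between 0.37 and 0.47 on day 1 and between -0.84 and -0.37 on day 2. The number of arrays limits the precision. In whole seedlings, fewer cells of a type and less RNA per cell cannot be told apart. As a check of the labels, the REV probe set lay between 3.99 and 4.42 on the GR-REV arrays and between -0.77 and 0.45 on all others. The KAN1 probe set lay between 8.12 and 9.39 on the KAN1-GR arrays and between -0.71 and 0.79 on all others.

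On 2 arrays of day 1 several members at once lay far from the other arrays of the same group: GR-REV at 0 min, replicate 2, and wild type at 60 min, replicate 3. Both had low COPT2 and ZIP2 and high CSD1, CSD2 and CCS. Member calls that rest on either array are therefore also given without it, whereas changes with time on day 1 keep all arrays. Wild type and GR-REV of day 1 share a growth day, and DEX times were separate flasks, so no array follows another in time.

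At 30 min COPT2, ZIP2, CSD1, CSD2 and CCS stood far apart between the days. CCH and COPT1 were lower on day 1 by smaller margins, without overlap, and FSD1 overlapped. Day 2 holds no 120 min group. On day 2 no member moved 2-fold from its 0 min mean in either line. The widest change was that of ZIP2 in KAN1-GR at 30 min, -0.66, without overlap. COPT2 (-0.54) and CSD1 (0.42) did not overlap their 0 min arrays there either. On day 1 the uptake genes COPT2 and ZIP2 were low at 30 and 120 min in both wild type and GR-REV, and CSD1, CSD2 and CCS were high in the same groups. At 60 min COPT2 and ZIP2 were mostly back near the 0 min values. CSD1, CSD2 and CCS then lay below every 0 min array of the same line on all GR-REV arrays. In wild type they did so on replicates 1 and 2 but not on replicate 3. COPT2 ran over the widest range of group means, 4.73 on the log2 scale (26.5-fold), followed by ZIP2 with 3.84 (14.3-fold). CSD1 ran over 3.14 (8.82-fold), CSD2 over 3.04 (8.22-fold) and CCS over 2.70 (6.5-fold). CCH, FSD1 and COPT1 ran over 1.30, 0.88 and 0.84.

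**Figure D1:**
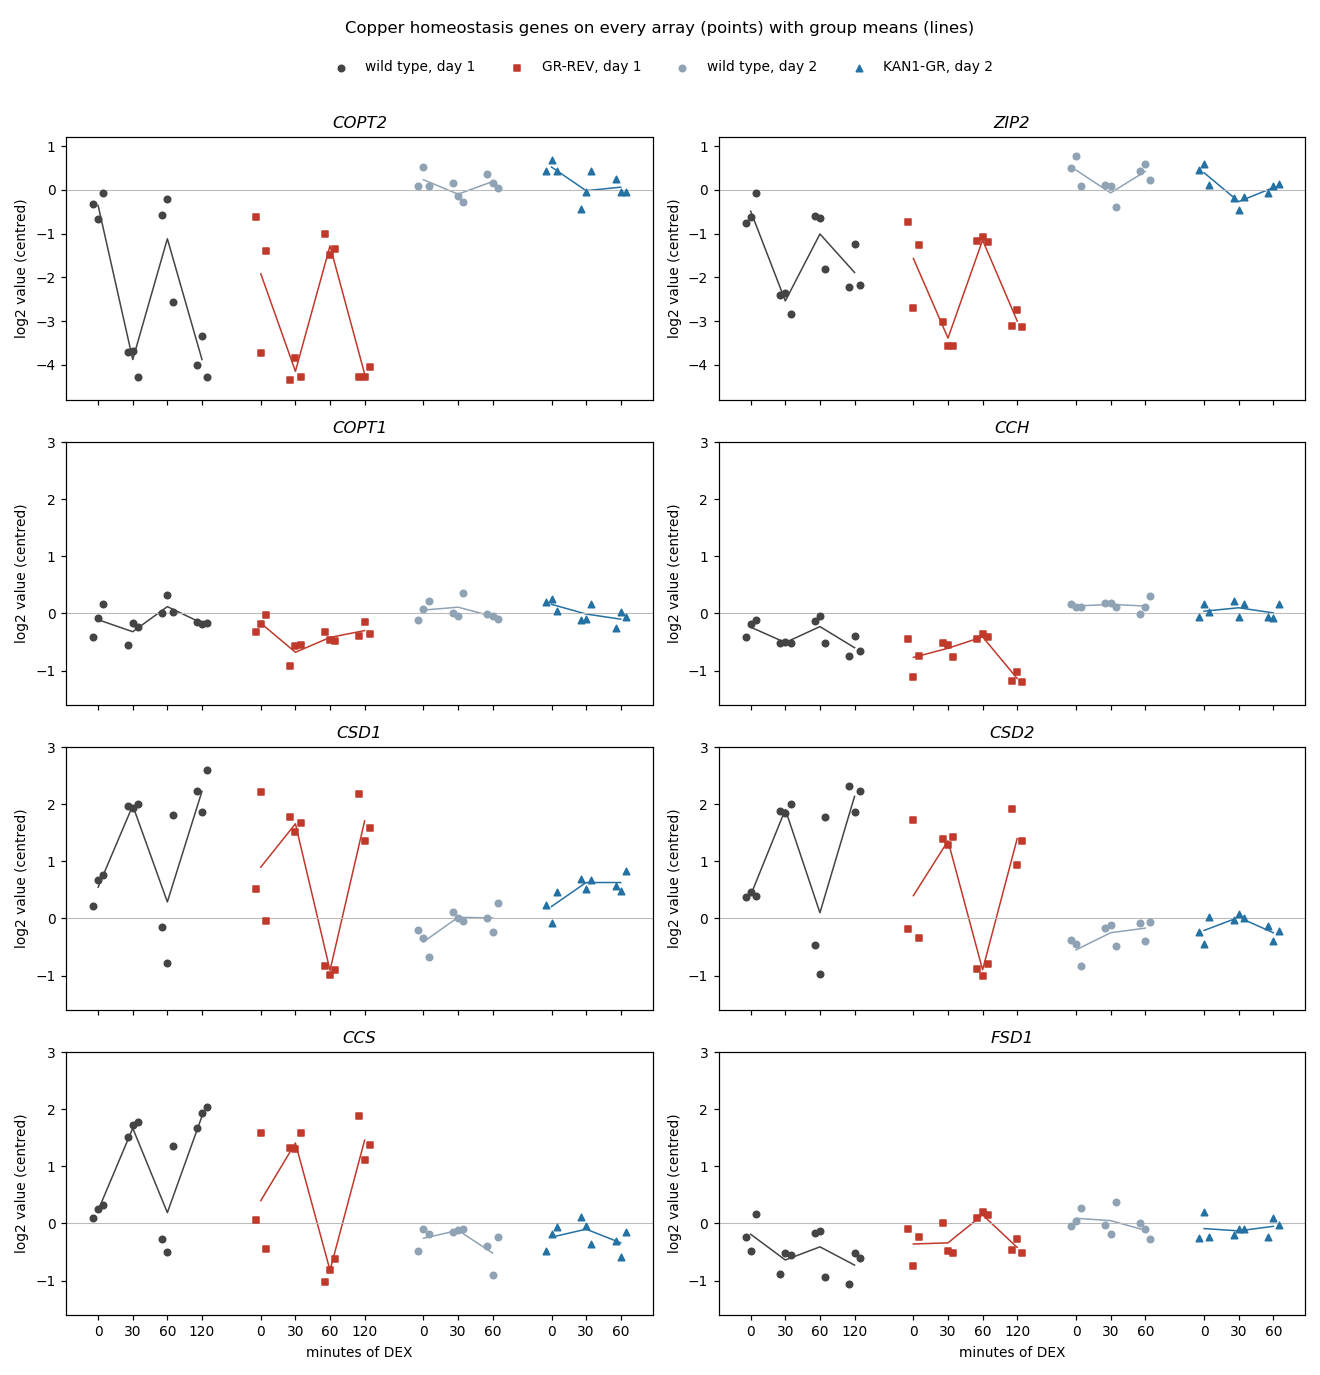
Log2 values (vertical axis, centred on wild type at 0 min) of the 8 members against minutes of DEX, for wild type of day 1, GR-REV, wild type of day 2 and KAN1-GR from left to right. Points are single arrays and lines join the means of 3 arrays. COPT2 and ZIP2 are low and CSD1, CSD2 and CCS high at 30 and 120 min on day 1, and the day 2 values stay between -0.91 and 0.84 in every panel.

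COPT2 (AT3G46900) encodes a high-affinity copper transporter of the plasma membrane. In wild type of day 1 its log2 values were -0.32, -0.67 and -0.08 at 0 min, -3.70, -3.68 and -4.28 at 30 min, -0.57, -0.21 and -2.57 at 60 min, and -4.00, -3.34 and -4.29 at 120 min. The GR-REV values were -0.62, -3.73 and -1.40 at 0 min, -4.35, -3.84 and -4.27 at 30 min, -1.0, -1.48 and -1.36 at 60 min, and -4.29, -4.29 and -4.05 at 120 min. All 12 arrays of the 30 and 120 min groups lay below every other day 1 array but GR-REV 0 min replicate 2, which lay among them. In wild type the mean differed from that at 0 min by -3.53 on the log2 scale at 30 min (11.5-fold lower) and by -3.52 at 120 min (also 11.5-fold). In GR-REV it differed by -2.24 and -2.29 at these times. GR-REV 0 min replicate 2, at -3.73, enters both of these, and they were not computed without it. The sizes of the falls in both lines are therefore not compared. A floor for the lowest COPT2 values could not be set, so the folds are those of the deposited values.

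On day 2 the wild-type values of COPT2 were 0.09, 0.51 and 0.08 at 0 min, 0.15, -0.15 and -0.29 at 30 min, and 0.36, 0.16 and 0.05 at 60 min. In KAN1-GR they were 0.44, 0.69 and 0.42 at 0 min, -0.45, -0.04 and 0.42 at 30 min, and 0.25, -0.04 and -0.04 at 60 min. In wild type the 3 groups overlapped, and in KAN1-GR the 0 min arrays lay just above those at 30 and 60 min. The 14 group means of COPT2 ran from -4.21 in GR-REV at 120 min to 0.52 in KAN1-GR at 0 min. None of the 13 neighbouring pairs in this order was separated, since their arrays overlapped each time.

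ZIP2 (AT5G59520) encodes a ZIP-family transporter of divalent metals. In wild type of day 1 its log2 values were -0.76, -0.62 and -0.08 at 0 min, -2.40, -2.36 and -2.85 at 30 min, -0.59, -0.64 and -1.80 at 60 min, and -2.23, -1.25 and -2.18 at 120 min. GR-REV gave -0.73, -2.71 and -1.26 at 0 min, -3.02, -3.57 and -3.58 at 30 min, -1.17, -1.08 and -1.19 at 60 min, and -3.12, -2.75 and -3.14 at 120 min. The groups at 30 and 120 min lay below those at 0 min without overlap in both lines, the course that COPT2 took. GR-REV lay below wild type of the same time without overlap at 30 and 120 min, by 0.86 and 1.11 on the log2 scale, whereas the COPT2 arrays of both lines overlapped there. ZIP2 was already lower in GR-REV at 0 min, by -1.08, or -0.51 without GR-REV replicate 2. Its change from 0 min in GR-REV less that in wild type was 0.23 at 30 min and -0.03 at 120 min, neither called (limma). The lowest COPT2 values of both lines lay close together, at -4.35 to -4.27, and a floor for them could not be set. Whether a floor hides a difference of COPT2 between the lines was not tested. On day 2 all ZIP2 values lay between -0.46 and 0.77.

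COPT1 (AT5G59030) encodes the transporter for copper uptake at the root tip. Its log2 values on day 1 lay between -0.92 and 0.32, with the lowest group mean, -0.68 ± 0.20 (SD, n = 3), in GR-REV at 30 min. The 3 values there, -0.92, -0.57 and -0.56, lay below those of GR-REV at 0 min, which were -0.32, -0.18 and -0.02. On day 2 COPT1 lay between -0.26 and 0.35. COPT1 thus held a narrow range beside COPT2 and ZIP2.

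The chaperones of the set differed from each other. CCH (AT3G56240) encodes a chaperone of the cytosol thought to serve copper reallocation in ageing tissue. Its group means were below 0 in all 8 day 1 groups and above 0 in all 6 day 2 groups. By the centring, 0 lies between the untreated wild type of both days for this gene, so these signs follow in part from it. In wild type of day 1 its log2 values were -0.42, -0.19 and -0.11 at 0 min and -0.75, -0.40 and -0.66 at 120 min. In GR-REV they were -0.44, -1.12 and -0.75 at 0 min and -1.19, -1.02 and -1.21 at 120 min, the lowest mean of any group, -1.14 ± 0.11 (SD, n = 3).

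CCS (AT1G12520) encodes the chaperone of the copper/zinc superoxide dismutases. In wild type of day 1 its log2 values were 0.10, 0.25 and 0.33 at 0 min, 1.51, 1.72 and 1.78 at 30 min, -0.28, -0.50 and 1.35 at 60 min, and 1.67, 1.93 and 2.04 at 120 min. The values of GR-REV were 0.06, 1.59 and -0.45 at 0 min, 1.33, 1.31 and 1.59 at 30 min, -1.02, -0.82 and -0.62 at 60 min, and 1.88, 1.12 and 1.38 at 120 min. In wild type the 30 and 120 min groups lay above 0 min without overlap, by 1.44 and 1.65. In GR-REV they overlapped 0 min through replicate 2, and the 60 min group lay below it without overlap.

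CSD1 (AT1G08830) and CSD2 (AT2G28190) encode the copper/zinc superoxide dismutases of cytosol and plastid, which turn superoxide into hydrogen peroxide. In wild type of day 1 the CSD1 values were 0.21, 0.68 and 0.76 at 0 min, 1.98, 1.94 and 2.0 at 30 min, -0.15, -0.78 and 1.81 at 60 min, and 2.23, 1.86 and 2.60 at 120 min. In GR-REV they were 0.51, 2.22 and -0.04 at 0 min, 1.78, 1.51 and 1.68 at 30 min, -0.83, -0.99 and -0.90 at 60 min, and 2.18, 1.36 and 1.58 at 120 min. The wild-type arrays at 30 and 120 min lay above those at 0 min without overlap, and GR-REV at 60 min held the lowest CSD1 group mean of all, -0.91 ± 0.08 (SD, n = 3).

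For CSD2 the wild-type values were 0.37, 0.47 and 0.40 at 0 min, 1.89, 1.84 and 2.0 at 30 min, -0.47, -0.98 and 1.77 at 60 min, and 2.32, 1.87 and 2.23 at 120 min. In GR-REV they were -0.18, 1.73 and -0.34 at 0 min, 1.39, 1.28 and 1.43 at 30 min, -0.88, -1.01 and -0.80 at 60 min, and 1.91, 0.93 and 1.35 at 120 min. In wild type CSD2 was 2.83-fold higher at 30 min than at 0 min and 3.32-fold higher at 120 min. On day 2 CSD1 lay between -0.68 and 0.84 and CSD2 between -0.84 and 0.07.

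FSD1 (AT4G25100) encodes the iron superoxide dismutase, which stands in for the copper enzymes when copper is scarce. In wild type of day 1 its log2 values were -0.23, -0.49 and 0.16 at 0 min, -0.88, -0.51 and -0.55 at 30 min, -0.17, -0.13 and -0.93 at 60 min, and -1.06, -0.51 and -0.60 at 120 min. In GR-REV they were -0.10, -0.75 and -0.24 at 0 min, 0.00, -0.48 and -0.52 at 30 min, 0.09, 0.20 and 0.15 at 60 min, and -0.47, -0.28 and -0.51 at 120 min. In wild type the 30 and 120 min arrays lay below those at 0 min without overlap, by differences of -0.46 and -0.54, and in GR-REV they overlapped them. The range of its group means was 1.84-fold. No neighbouring pair in the order of its 14 group means was separated.

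Read over the set, the day 1 wild type at 30 min had 3 members at least 2-fold above 0 min and 2 at least 2-fold below, where 1.26% and 0.67% of the 16129 tested probe sets were that far above and below. In 7 of 8 members the 3 arrays at 30 min did not overlap the 3 at 0 min, against 32% of tested probe sets. At 120 min the wild type had 3 members that far above and 2 below, against 1.09% and 0.279%, and 6 members that did not overlap, against 18.6%. At 60 min none of the 8 was 2-fold away in either direction or free of overlap, against 0.998% above, 0.285% below and 22.3% not overlapping. Nothing is read from these counts, since the change over time chose the set.

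In GR-REV at 30 min 1 member was at least 2-fold above its 0 min mean, 2 were that far below and 3 did not overlap, against 2.15%, 1.45% and 29.5% of tested probe sets. At 60 min none was 2-fold above, 3 were 2-fold below and 5 did not overlap, against 2.24%, 2.36% and 30.8%. At 120 min 1 was 2-fold above, 2 were 2-fold below and 2 did not overlap, against 1.54%, 2.24% and 28.5%. The members at least 2-fold lower were COPT2 and ZIP2 at 30 and 120 min and CCS, CSD1 and CSD2 at 60 min. GR-REV 0 min replicate 2 enters all of these differences, and the counts were not made again without it.

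**Figure D2:**
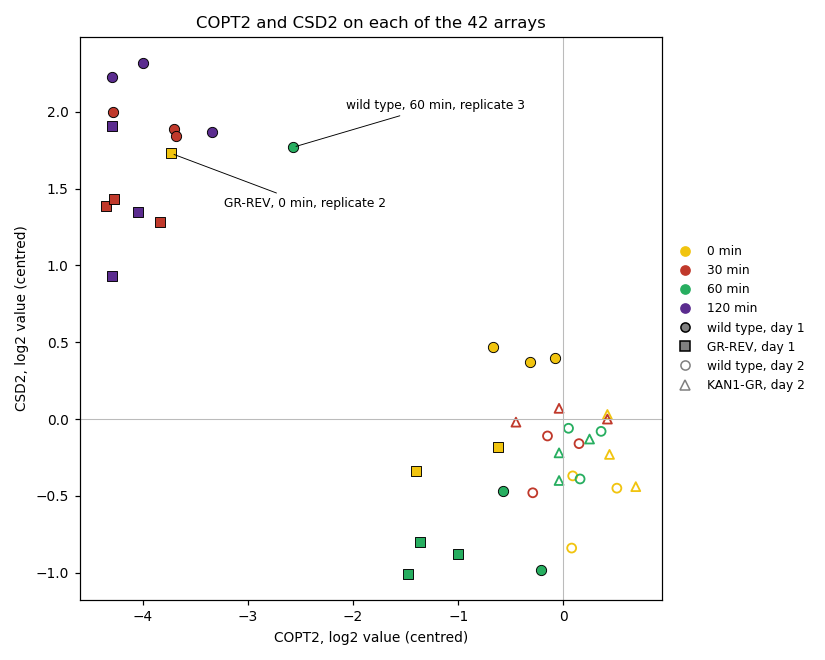
Log2 values of COPT2 (horizontal axis) and CSD2 (vertical axis) on each of the 42 arrays, with colour for minutes of DEX, filled symbols for day 1 and open symbols for day 2. The 30 and 120 min arrays of day 1 sit at the upper left together with GR-REV 0 min replicate 2 and wild type 60 min replicate 3, and the day 2 arrays sit around 0 on both axes.

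Array by array, COPT2 and CSD2 had opposite signs on all day 1 arrays at 30 and 120 min. They also did so on GR-REV 0 min replicate 2 and wild type 60 min replicate 3. On some other arrays, such as all of GR-REV at 60 min, COPT2 and CSD2 both lay below 0. Over the 14 group means Pearson's r between them was -0.87, and it was -0.91 for COPT2 with CCS and -0.81 with CSD1. FSD1 ran with COPT2 (r = 0.78) and against CSD2 (r = -0.92). These are descriptions over 14 means that share arrays and growth days, and the day 1 groups at 30 and 120 min set most of their spread. Within the 6 group means of day 2, r of COPT2 with CSD2 was -0.25 and with ZIP2 0.78.

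Day 2 was not used in choosing the set, so COPT2 was tested there against each other member over the 18 arrays, which differ little in level. ZIP2 ran with COPT2 (Pearson's r = 0.61, permutation p = 0.00668, Benjamini-Hochberg adjusted over 7 relations 0.0468, two-sided). The permutations exchanged all 18 arrays freely, so the p-value takes no account of the groups by line and time. Spearman's rho was 0.60, with a permutation p of 0.00958 that did not pass after adjustment (0.0671). Without the 2 arrays farthest from the median COPT2 value r was 0.52. It was 0.85 over the 9 wild-type arrays, 0.61 over the 9 KAN1-GR arrays and 0.41 for deviations from the group means. For the other 6 members r lay between -0.26 and 0.26, with adjusted p of 0.601 or more for Pearson's r and 0.441 or more for Spearman's rho.

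The first comparison the design allows asks whether a line differed from wild type of its day before DEX. Of the 7 members other than COPT2, 2 were lower in GR-REV than in wild type of day 1 and none was higher, where 8.08% of tested probe sets were lower, 7.77% were higher and 15.9% differed in either direction (limma, adjusted p under 0.05). ZIP2 was lower by a log2 difference of -1.08 ± 0.33 (SE, n = 3 and 3, limma adjusted p = 0.021) and CCH by -0.53 ± 0.13 (limma adjusted p = 0.00436). CCH was lower in all 3 GR-REV arrays than in any wild-type array, while the ZIP2 arrays overlapped. The mean of COPT2 stood -1.56 below that of wild type, with no test, since these 0 min arrays are the start of the course that chose the set.

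Both calls rest on GR-REV replicate 2. Without it no member passed, the differences being -0.51 for ZIP2 and -0.36 for CCH, with -0.65 for COPT2. After quantile normalization none of the 7 passed either, and the ZIP2 call was also lost without wild-type replicate 3 (-0.88, limma adjusted p = 0.119). With GR-REV 0 min replicate 2 and wild type 60 min replicate 3 both left out, CCH still passed (-0.36, limma adjusted p = 0.0492) and CSD2 was lower by -0.67 (limma adjusted p = 0.0206). The median of 12 root marker genes lay between -1.18 and -0.93 on the 3 GR-REV arrays at 0 min and between -0.46 and -0.03 on those of wild type, and 6 of the 11 tested were lower in GR-REV. The median of 9 leaf photosynthesis genes lay between -0.29 and -0.09 in GR-REV and between -0.04 and 0.11 in wild type, and 5 of 9 were lower. The part of these in the members' values was not tested.

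In KAN1-GR no member differed from wild type of day 2 before DEX (0 of 8, against 10.7% of tested probe sets, 4.94% higher and 5.78% lower, limma), and none reached an unadjusted p under 0.05, where 25.1% of tested probe sets did. The widest difference was that of CSD1, 0.62 ± 0.41 (SE, 95% interval -0.21 to 1.45, arrays not overlapping). The 95% interval of COPT2 was -0.67 to 1.25, so a change of 2-fold upwards lies within it.

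The second question is whether DEX changed the members in a transgenic line more than in wild type. The response tested is the change of a line from 0 min less the change of the wild type of its day. In GR-REV none of the 7 members other than COPT2 passed at 30, 60 or 120 min, where 1.38%, 4.36% and 3.84% of tested probe sets did (limma). These were 0.862% higher and 0.521% lower at 30 min, 1.75% and 2.61% at 60 min, and 1.18% and 2.65% at 120 min. At an unadjusted p under 0.05, 1 member stood at 30 min (CCH), 5 at 60 min (COPT1, CCS, CSD1, FSD1 and ZIP2) and 0 at 120 min. Of all tested probe sets 10.6%, 15.5% and 15.8% had such a p at these times. The response of CSD1 at 60 min was -1.55 ± 0.57 (SE, limma adjusted p = 0.143) and that of CCS -1.18 ± 0.48 (limma adjusted p = 0.2). For COPT2 the responses were 1.29, 1.40 and 1.23, with no test, since its course on day 1 chose the set. Its lower start in GR-REV enters all 3. That start was -1.56 against wild type, and -0.65 without GR-REV 0 min replicate 2.

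At 60 min the count depended on single arrays. Without GR-REV 0 min replicate 3, CCS (-1.61, limma adjusted p = 0.037) and CSD1 (-2.01, limma adjusted p = 0.0295) passed, and without wild type 60 min replicate 2 CSD1 passed (-2.08, limma adjusted p = 0.0264). Without GR-REV 0 min replicate 2 and wild type 60 min replicate 3 the same responses were -0.01 for CCS and -0.12 for CSD1. In the authors' deposited table, the p-values of the genotype by time term for GR-REV lay between 0.399 and 0.79 for the 7 members other than COPT2.

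In KAN1-GR no member's response passed at 30 or 60 min (0 of 8 each, against 2.4% and 6.84% of tested probe sets, limma), and none had an unadjusted p under 0.05, where 11.7% and 18.4% did. Of all tested, 0.694% were higher and 1.71% lower at 30 min, and 2.88% and 3.96% at 60 min. At 60 min the members' responses lay between -0.43 (COPT2) and 0.25 (FSD1), with a 95% interval for COPT2 of -1.78 to 0.93. Wild type of day 2 showed no member past the threshold at 30 or 60 min (0 of 8 each, against 0.601% and 0.477%, limma), and none at an unadjusted p under 0.05, where 9.23% and 12.7% of tested probe sets were. CSD1 there stood 0.43 ± 0.41 (SE) above 0 min at 30 min and COPT2 -0.33 ± 0.47.

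The responses of both lines were also set against each other, which compares the days as well as the constructs. None of the 7 tested members differed at 30 or 60 min (against 2.25% of tested probe sets, 1.56% higher and 0.688% lower, and 6.36%, 3.08% higher and 3.28% lower, limma). None had an unadjusted p under 0.05, where 12% and 18.1% of tested probe sets had. The widest difference was that of CSD1 at 60 min, -1.55 ± 0.81 (SE, limma adjusted p = 0.319). Day and construct cannot be told apart in it.

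**Figure D3:**
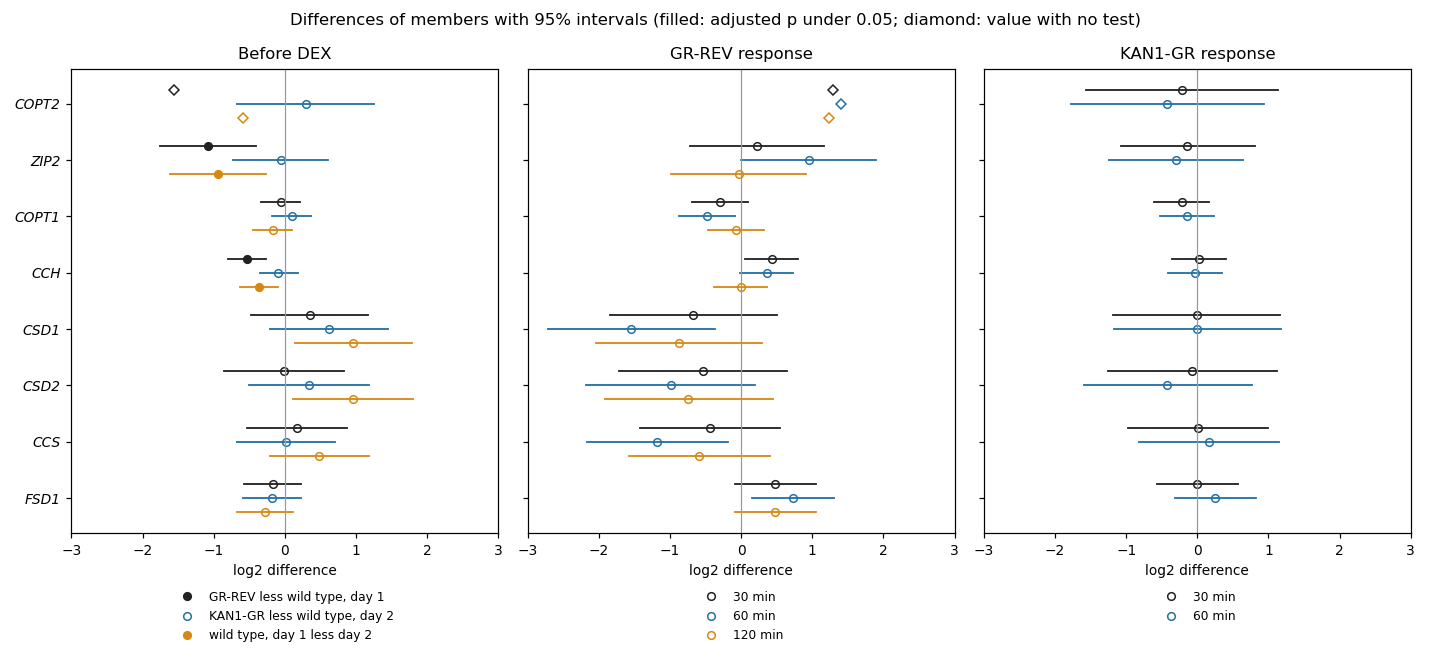
Log2 differences (horizontal axis) of the 8 members with 95% intervals, before DEX (left), for the GR-REV response (middle) and for the KAN1-GR response (right). Filled symbols passed an adjusted p of 0.05 and diamonds are values given with no test. ZIP2 and CCH are filled for GR-REV against wild type at 0 min and for wild type of day 1 against day 2, and no response of either line is filled.

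Wild type of both days was compared before DEX. Of 7 tested members, 2 were lower on day 1 and none was higher, where 11.2% of tested probe sets were lower, 11.8% were higher and 22.9% differed in either direction (limma). CCH was lower by -0.37 ± 0.13 (SE, limma adjusted p = 0.0385) and ZIP2 by -0.94 ± 0.33 (limma adjusted p = 0.0364). CSD1 and CSD2 stood 0.96 higher on day 1 each and did not pass (limma adjusted p = 0.0846 and 0.0899). COPT2 stood -0.59 lower, with no test. Leaving out 1 of 6 arrays at a time left between 0 and 2 calls, and the calls were lost in 5 of these 6 fits for CCH (differences of -0.43 to -0.28 over all 6) and in 4 of 6 for ZIP2 (-1.14 to -0.78). CCH kept its call without wild-type replicate 3 alone, and ZIP2 without replicate 3 or 6. The plastid transcript psaA stood at -4.21 on all 3 wild-type arrays of day 1 at 0 min and between 2.85 and 6.23 on every other wild-type array of both days, and its part was not tested. Day and growth batch cannot be told apart.

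The other genes of the copper pathway were taken from lists of transporters, regulators, copper proteins and metal-binding proteins. Of 14 tested copper transport and delivery genes that are not members, 6 were called in at least 1 of the 12 comparisons, where 42.8% of all tested probe sets were, so this share is near the background. In KAN1-GR, YSL1 and YSL3, which encode transporters of metal-nicotianamine complexes, fell at 60 min. YSL1 stood at -1.62, -1.78 and -1.61 there, against -0.36, 0.18 and -0.20 at 0 min, and wild type of day 2 stayed between -0.12 and 0.39. Its response was -1.51 ± 0.25 (SE, limma adjusted p = 8.96e-05), and that of YSL3 was -1.46 ± 0.31 (limma adjusted p = 0.00182). Both calls held in each of the 12 fits lacking a single array. In GR-REV before DEX, YSL1 (0.64) and HCC2 (0.75), which encodes a protein related to cytochrome oxidase assembly factors, were higher than in wild type (limma adjusted p = 0.0124 and 0.0111). The first was lost in 2 of 6 fits with an array removed and the second in 1, and the second also after quantile normalization.

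YSL2, another gene of that transporter family, took the course of COPT2 on day 1. In wild type its log2 values were -0.22, -0.03 and 0.03 at 0 min, -1.71, -1.6 and -1.54 at 30 min, 0.19, -0.08 and -0.89 at 60 min, and -1.57, -0.99 and -1.44 at 120 min. In GR-REV they were 0.09, -1.16 and -0.31 at 0 min, -1.24, -1.71 and -1.56 at 30 min, -0.06, -0.18 and -0.12 at 60 min, and -1.31, -0.74 and -1.13 at 120 min. The low single arrays at 0 min in GR-REV and at 60 min in wild type were again replicates 2 and 3. YSL2 was the sole one of the 14 tested genes of the list that had a 2-fold difference in wild type of day 1 against 0 min, at 30 min (-1.54) and at 120 min (-1.26).

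The regulator SPL7 varied little, with group means between -0.22 and 0.23, and was called in none of the 12 comparisons. The other listed regulator locus, AT1G71200, was not tested, and its group means lay between -0.43 and 0.33. Of the 4 superoxide dismutases that are not members (CSD3 of the peroxisome, FSD2 and FSD3 of the plastid and MSD1 of the mitochondrion), none was called in the 12 comparisons. On day 1 none of these 4 reached a 2-fold difference at any time, CSD1 and CSD2 standing apart from CSD3, whose difference in wild type at 30 min was -0.16.

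Of 12 tested copper proteins and targets of copper microRNAs, 5 were called in at least 1 comparison, near the 42.8% of all tested probe sets. ARPN, the plantacyanin that miR408 targets, responded in GR-REV at 60 min with -1.83 ± 0.53 (SE, limma adjusted p = 0.0401). Its values there were -0.34, -1.52 and -1.80, against 0.44, 2.30 and 0.35 at 0 min, replicate 2 of which lay apart. Removing single arrays lost this call in 7 of 12 fits, and it was -0.67 (limma adjusted p = 0.474) without the 2 arrays named above. ARPN was also 1.71 ± 0.37 higher in wild type of day 1 than of day 2 at 0 min (limma adjusted p = 0.00166). BCB, a blue copper-binding protein, was 2.71 ± 0.60 higher in GR-REV before DEX (limma adjusted p = 0.00181) and -2.12 ± 0.60 lower in KAN1-GR (limma adjusted p = 0.0213), the latter lost in 3 of 6 fits lacking an array. The laccase gene LAC7 and the uclacyanin gene UCC2 were lower in GR-REV before DEX, by -0.75 and -0.63. The LAC7 call was lost in 3 of 6 fits lacking an array (-0.98 to -0.40), after quantile normalization, with array weights and without the 2 arrays named above. The plastocyanin genes PETE1 and PETE2 were called in no comparison.

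Of 5 metallothionein genes, whose products bind copper and other metals, none was called in a DEX response and 3 were called in a comparison at 0 min, against 42.8% of all tested probe sets called in any comparison. MT2A was 0.45 ± 0.15 higher in GR-REV (limma adjusted p = 0.0393), a call lost in 3 of 6 fits lacking an array. MT3 was -0.51 ± 0.13 lower in KAN1-GR (limma adjusted p = 0.0112), a call lost without wild-type replicate 6 or KAN1-GR replicate 3, and -0.68 ± 0.13 lower in wild type of day 1 than of day 2 (limma adjusted p = 0.000544).

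Iron and zinc uptake was examined because ZIP2 belongs to the ZIP family and FSD1 needs iron. Of 20 tested genes 14 were called in at least 1 comparison, where 42.8% of all tested probe sets were. In wild type at 0 min 8 were higher and 3 lower on day 1 than on day 2, against 11.8% and 11.2% of all tested. NAS4, a nicotianamine synthase gene, was 2.99 higher on day 1 and PYE, a regulator of iron deficiency, 2.0 higher, whereas IRT2, an iron transporter gene, was -3.27 lower. Within day 2, KAN1-GR before DEX differed from the same wild-type arrays in the same directions. Both comparisons subtract these wild-type arrays, so the shared directions are not independent results. The differences were 2.24 for NAS4, 1.63 for PYE and -2.84 for IRT2, all called. The arrays overlapped for NAS4 and PYE. The NAS4 call was lost in 3 of 6 fits lacking an array and the PYE call in 1. Both were lost without wild-type replicate 6. IRT2 was also lower in wild type of day 2 at 30 min (-1.75) and 60 min (-1.67) than at 0 min, against the same 0 min arrays. These calls were lost in 4 of 6 and 3 of 6 fits lacking an array. Both were also lost with a spread that follows the mean. In KAN1-GR the response of OPT3, a transporter of the phloem, was -2.18 ± 0.43 at 60 min (SE, limma adjusted p = 0.000887). Before DEX OPT3 stood 1.19 above wild type of day 2 (limma adjusted p = 0.0111, lost in 3 of 6 fits lacking an array). This higher start enters the response, whose call held in all 12 fits lacking an array and against wild type of the same time alone. IRT1, the main iron transporter of the root, was singled out after its values were seen. It stood below 0 min at 30, 60 and 120 min in wild type of day 1, by -2.95, -1.77 and -2.84, and so did not return at 60 min as COPT2 did. Over the 14 group means its r with COPT2 was 0.11.

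The genes whose group means ran most like those of 3 members were found among 15137 tested probe sets of 1 gene, by Pearson's r over the 14 group means, with no test. For COPT2 they were ZIP2 (r = 0.97), YSL2 (0.96), AT3G06460 (0.920), EDA4 (0.914) and AT5G60530 (0.904). For CSD2 they were CCS (0.984), CSD1 (0.967), AT5G16280 (0.896), AT5G39410 (0.855) and RUS5 (0.854). So 1 further member ranked first for COPT2. For CSD2, both remaining genes of the miR398 targets named above ranked first and second. For FSD1 they were AT3G45770 (0.869), PAP8 (0.860), SUMO3 (0.828), YSL2 (0.811) and CTL2 (0.810). The ranges of the lower ranked genes were narrow beside the members: AT5G16280 ran from -0.07 to 0.37, where CSD2 ran from -0.90 to 2.14.

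**Figure D4:**
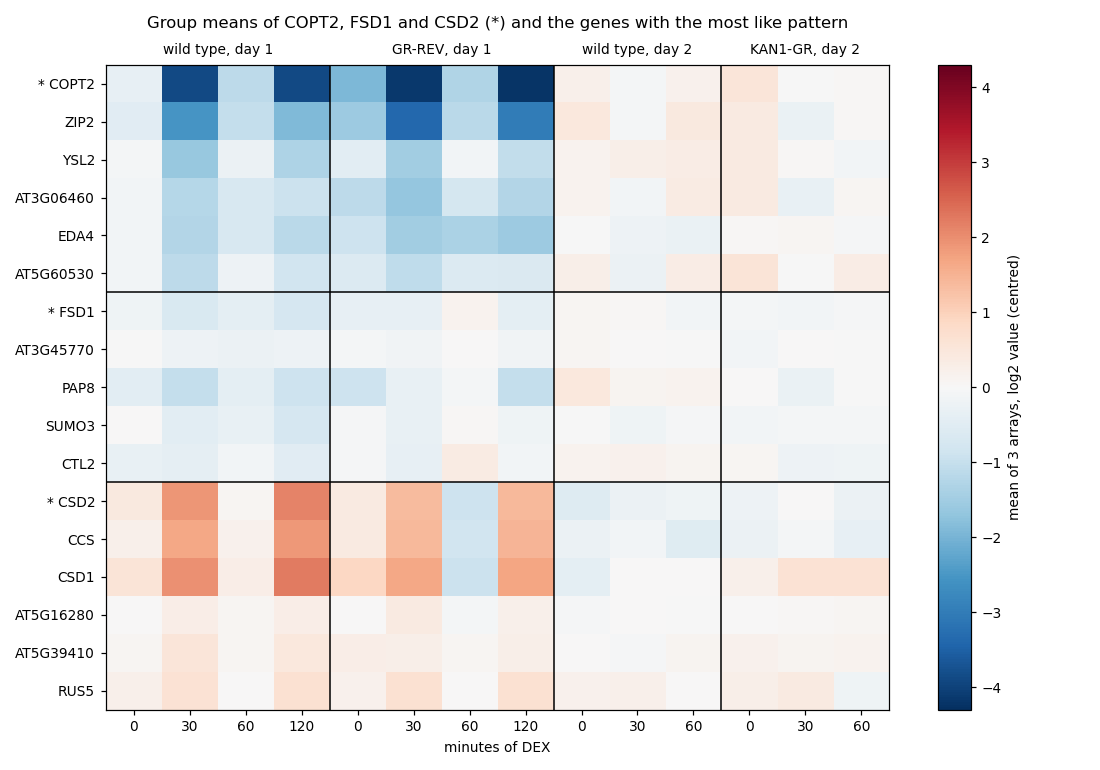
Colour gives the mean log2 value of 3 arrays for COPT2, FSD1 and CSD2 (asterisks) and the genes ranked most like each, over the 14 groups, with minutes of DEX on the horizontal axis. YSL2, which is ranked for COPT2 and for FSD1, is drawn once. ZIP2 and YSL2 share the low columns of COPT2 at 30 and 120 min on day 1, and CCS and CSD1 share the high columns of CSD2.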

How the data were processed

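RNA of 42 seedling samples was hybridised to ATH1 arrays. The deposited log2 values were made by the authors with GCRMA, per the submitters' processing notes, which name no version. GCRMA gives base 2, taken as the log base. Over the 6 wild-type arrays at 0 min the median of every probe set was 0 (largest absolute value 5e-07), and no source used here names the centring step. Another deposited table repeats these values (largest difference 0) beside the authors' ANOVA p-values for 16164 probe sets.

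Tested were the 16129 non-control probe sets with such a p-value: 15138 of 1 gene, 710 of several and 281 of none. All 8 members passed this filter. COPT2 was planned for a test of GR-REV against wild type at 0 min and is given there with no test, since its day 1 arrays chose the set. All 42 arrays entered 1 linear model with 14 group means in limma (version 3.58.1, under R 4.3.3), with 28 residual and 3.92 prior degrees of freedom, which was checked on simulated data. Tests were two-sided. In each of 12 comparisons p-values were adjusted by Benjamini-Hochberg over all 16129, at a threshold of 0.05. Day 2 correlations used 1e+05 permutations over all arrays of that day, without regard to group. No array pair was identical, and within groups r was 0.161 to 0.904. The limma p-values measure the spread between flasks.

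Members and lists were chosen with earlier results of these data known. Named were all members, up to 4 called genes of each list by adjusted p, both regulators, and 5 like genes for 3 members. Outside this rule, UCC2, PETE1, PETE2, CSD3, FSD2, FSD3, MSD1 and IRT1 were chosen after their values were seen. Symbols come from RefSeq (TAIR10.1) and the lists. Replicate numbers did not pair day 1 samples, as no label says so and only 1 of 12 correlations of deviations from group means was over 0.1 (-0.31 to 0.17). No sequence or coordinate is given, since none was used here. Alternatives were quantile normalization, median centring, testing all probe sets, array weights, a spread that follows the mean, a replicate block, single references and leaving out each array. Leaving out GR-REV 0 min replicate 2 with wild type 60 min replicate 3 was added after seeing the data.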

Additional observations from a re-analysis of the deposited data

Results flagged for a closer look

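In 6 cases the GR-REV response and the KAN1-GR response of a gene from the lists beside the copper homeostasis genes differed by a test of the difference itself (limma). Construct and day cannot be told apart in these. YSL3 differed by 1.75 ± 0.43 (SE) at 30 min (limma adjusted p = 0.0204) and by 1.87 ± 0.43 at 60 min (limma adjusted p = 0.00569). The call at 30 min was lost without GR-REV 0 min replicate 2. YSL1 differed by 1.32 ± 0.35 at 60 min (limma adjusted p = 0.0179), a call lost after quantile normalization and when GR-REV 0 min replicate 2 and wild type 60 min replicate 3 were both left out. BCB differed by -4.55 ± 1.2 at 60 min (limma adjusted p = 0.0161), a call lost without the same pair of arrays and against wild type of the same time alone. PSBO1, a photosystem II gene, differed by 0.58 ± 0.15 at 60 min (limma adjusted p = 0.0131), and the plastid gene psaB by 1.81 ± 0.46 (limma adjusted p = 0.0117). Both were lost against wild type of the same time alone, and PSBO1 also after quantile normalization. No copper homeostasis gene was among them. Groups of 3 arrays are too small for a test of single outlying samples.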

How the results depend on the processing

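Over 1651 recomputed values of single members, 1621 kept their side of the threshold, 17 were no longer past it and 13 were newly past it, and 0 called values turned. Of 1588 values not called, 176 changed sign. For GR-REV against wild type at 0 min the 2 member calls became 0 after quantile normalization, and ranged from 0 to 2 when 1 array was left out. For wild type of day 1 against day 2 the 2 calls became 4 after quantile normalization and 1 with all probe sets tested, and ranged from 0 to 2 with 1 array left out. Over all tested probe sets quantile normalization moved these counts from 2558 to 1211 and from 3701 to 6047, and the 30, 60 and 120 min GR-REV responses from 223 to 61, 704 to 286 and 619 to 232. It moved KAN1-GR at 0 min from 1730 to 3933, its responses from 387 to 799 and 1103 to 1660, and wild type of day 2 from 97 to 1074 and 77 to 1552. Array weights gave 4308 for KAN1-GR at 0 min, 2207 for its 30 min response, 3869 and 1210 for wild type of day 2, and 1065 against 363 for the difference of responses at 30 min. The GR-REV response at 60 min ranged from 0 to 2 calls, and every other comparison from 0 to 0. The replicate block left 1 call between days and changed no other member count. Against wild type of the same time alone the GR-REV calls were 3 of 7 at 60 min, 2 of 7 at 120 min and 1 of 7 for the difference from KAN1-GR at 60 min, against 12.8%, 15.4% and 15.6% of all tested probe sets. That reference leaves out the start of each line, and with it BCB turned to 0.28 in the difference at 60 min. The line's own 0 min as the sole reference was not run for GR-REV, since its change on day 1 is what chose the set, and for KAN1-GR it gave 0 calls. GCRMA values without scanner signals give no background, so a floor for the low COPT2 values could not be set.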
